A study of Drosophila melanogaster with 12 samples.

Results

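The T-box transcription factor genes mid, H15, bi, byn, Doc1, Doc2, Doc3 and org-1 were examined for binding of CLAMP and CP190 in Kc167 cells, an embryo-derived Drosophila melanogaster line labelled as female. A peak was assigned to a gene when it overlapped the gene body or the 5 kb on either side of it, with gene coordinates from RefSeq on Release 6 (dm6). All 8 genes were found among the 13911 protein-coding genes of the chromosome arms. Chromatin immunoprecipitation with sequencing was done with 5 µg of antibody against CLAMP or CP190, 6 days after nucleofection with no RNA (mock) or with a 12 µg dose of dsRNA targeting CP190 (dsCP190). Each of the 4 groups held 2 replicate libraries, with 1 peak list per library, and 4 inputs were not used here. Kc167 is a cultured line and not a tissue in which these genes act, and RNA and protein were not measured here, so neither expression of the T-box genes nor the depletion of CP190 is shown by these lists.

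T-box proteins bind DNA through a conserved domain and switch developmental genes on or off. In the fly, mid and H15 are related to vertebrate Tbx20 and act in heart, nervous system and ventral leg development. The gene bi, also called omb, is a Tbx2-class target of Dpp signalling in the wing and optic lobe, and byn is the fly Brachyury gene, required for the hindgut. The Dorsocross genes Doc1, Doc2 and Doc3 act in the amnioserosa and heart, and org-1, a Tbx1-class gene, acts in muscle. CLAMP is known for recognising GA repeats in DNA through its zinc fingers, and CP190 for its part in chromatin insulator complexes.

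The CLAMP lists of the mock libraries had 4471 and 4514 peaks, and those of the dsCP190 libraries 2468 and 901. For CP190 the mock lists had 7669 and 7964 peaks and the dsCP190 lists 2047 and 3138. For each antibody, peaks sharing 1 bp or more were merged across the 4 lists into regions, and regions with a peak in each mock list are called reproducible. There were 3654 reproducible CLAMP regions and 7356 reproducible CP190 regions. Every peak has the authors' fold enrichment, its signal at the summit over the local background. The fragment number and the local background behind each peak were recovered from the deposited fold enrichment and p-value, as whole fragments for at least 99.889% of the peaks of every list. At regions called in all 4 libraries the local background of the dsCP190 libraries was 0.359 to 0.449 of that of the mock libraries for CLAMP, and 0.544 to 0.924 for CP190. At these regions the dsCP190 libraries thus had less background, most of all for CLAMP. Over whole lists the median CP190 background was 10.7 and 14.6 fragments in mock and 11.0 and 8.38 in dsCP190 libraries. Sequencing depth itself was not measured, and the part of depth in the differences below was not tested.

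CLAMP was called near most T-box genes and CP190 near few. In mock cells 6 of the 8 gene windows held a reproducible CLAMP region, against 36.1% of all protein-coding genes. Windows differ in width: of the 13911, 1628 were as wide as that of H15 or wider, and 7246 as that of Doc3. Per 10 kb, 14.1% (H15) to 29.4% (Doc2) of protein-coding genes had as many CLAMP regions as each of these 6, or more. A reproducible CP190 region was present in 2 of the 8 windows, against 79.4% of protein-coding genes. The windows of mid, H15, bi, Doc2 and Doc3 had CLAMP and no CP190, which makes 5 of the 8 (2.42% of protein-coding genes) and 5 of the 6 with CLAMP. Doc1 had both (33.6% of protein-coding genes), org-1 CP190 alone (45.8%) and byn neither (18.2%). Among all 5016 protein-coding genes with CLAMP in their window, 6.7% had no CP190 there. No test of these differences was made, and the 8 genes are not independent, because H15 and mid are neighbours on 2L and the 3 Doc genes are neighbours on 3L. The 12 reproducible CLAMP regions at the T-box genes overlapped a CP190 region in 0 cases, which allows a share of up to 25%, against 42.3% of all CLAMP regions (Wilson 95% interval 0 to 24.2 for the T-box regions and 40.7 to 43.9 for all). Only the CLAMP region at Doc1 lay in a window with a CP190 region, so the 0 largely follows from the window counts above. Of the 2 CP190 regions, 0 overlapped CLAMP, against 20.6% of all. These intervals cover counting error only and take regions as independent, although 6 of the 12 lay at bi.

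**Figure D1:**
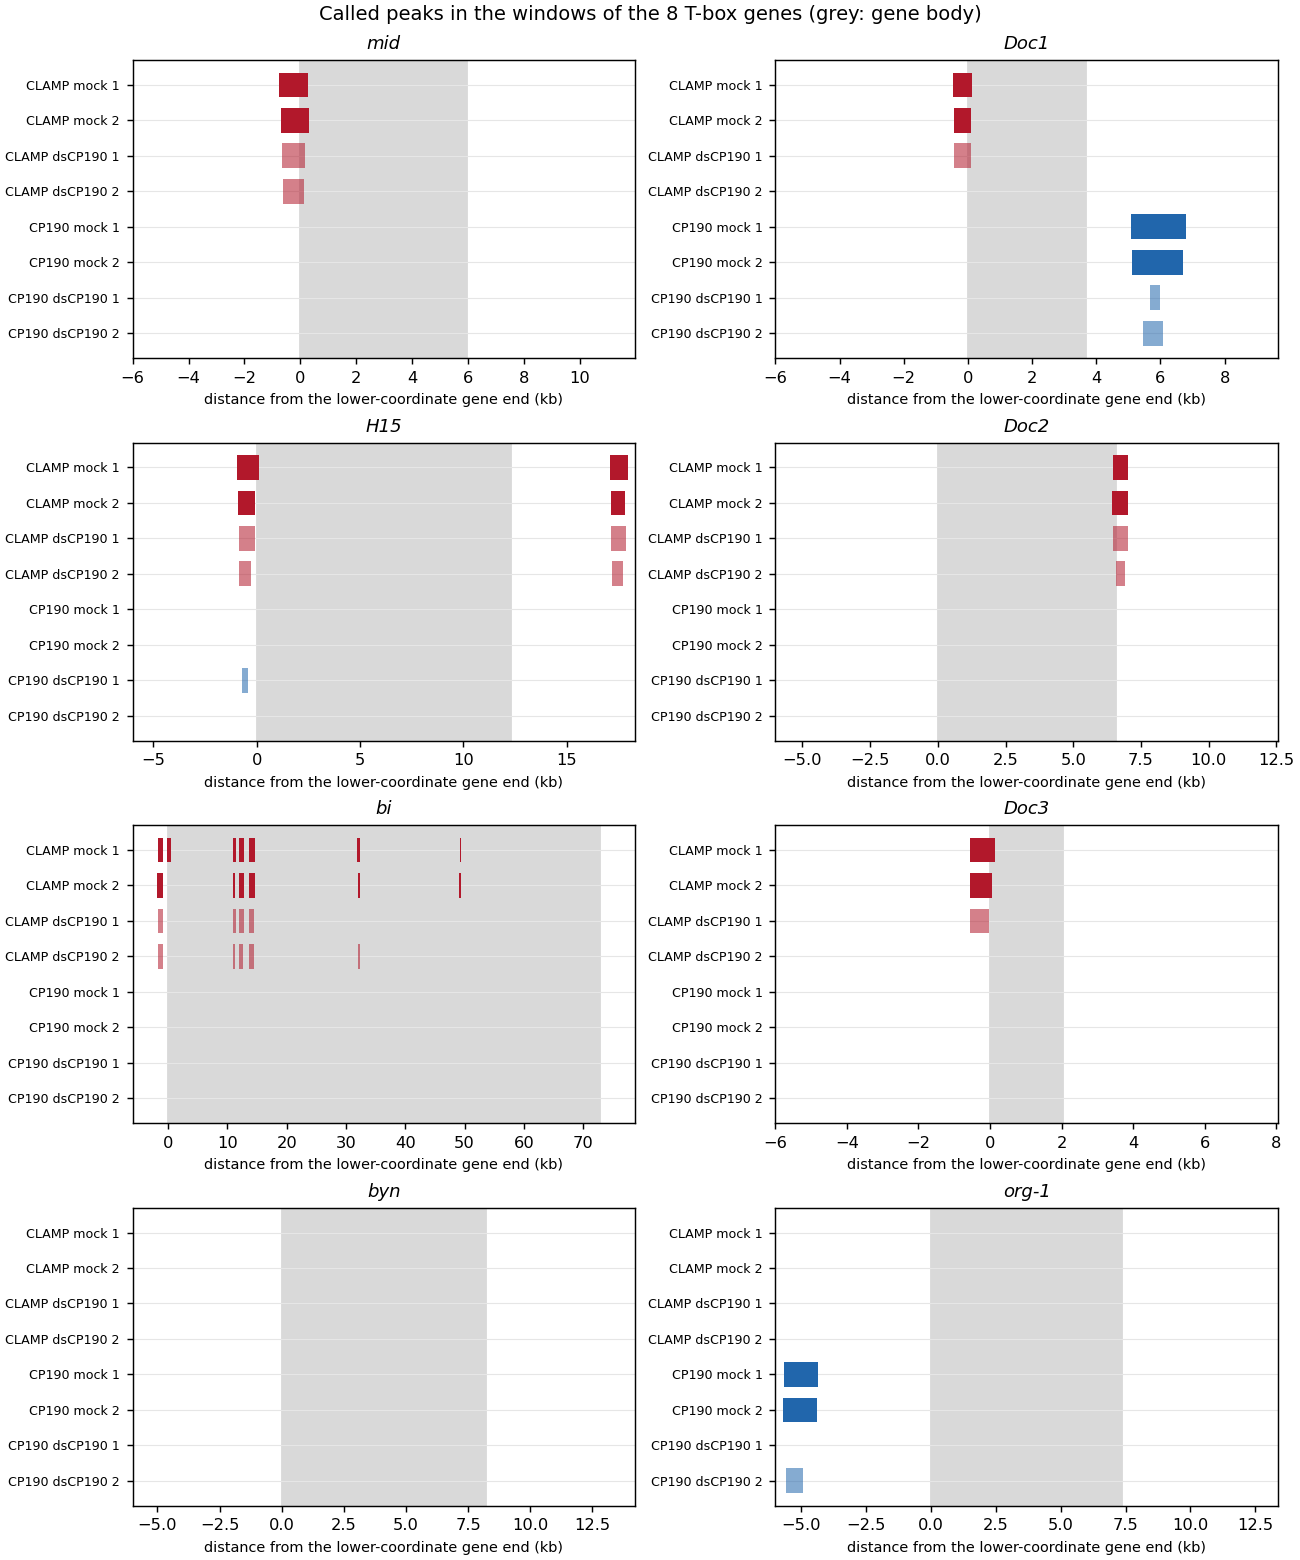
Peaks called in each of the 8 libraries (rows) in the window of each T-box gene, by distance in kb from the end of the gene with the lower coordinate. Bars span the called peaks, CLAMP in red and CP190 in blue, paler for dsCP190, and grey marks the gene body. CLAMP peaks recur at the same places in the libraries of 6 genes, while CP190 peaks appear only beside Doc1 and org-1 and in 1 library at H15, and byn has none.

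The strongest CLAMP regions lay at the Tbx20-related pair and at bi. At mid (Dmel_CG6634, 2L from 5461639 to 5467610) a single CLAMP region spanned 5460884 to 5461938 and covered the lower-coordinate end of the gene, with its mean mock summit 196 bp outside the gene. The mock libraries gave fold enrichments of 28.1 and 25.7 (replicates 1 and 2), and the dsCP190 libraries gave 33.4 and 15.4. All 4 libraries called it, and the dsCP190 values lay on both sides of the mock values. By fold it ranked 4 among 4471 and 17 among 4514 peaks in the mock lists, and 7 among 2468 and 35 among 901 peaks in the dsCP190 lists. The recovered fragments at its summit were 380 and 374 in mock and 191 and 120 in dsCP190, over local backgrounds of 12.5, 13.6, 4.75 and 6.87 fragments. The summits of the 4 libraries fell within 31 bp of each other.

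H15 (Dmel_CG6604, 2L from 5404280 to 5416593) is separated from mid by 45.0 kb and had CLAMP on both sides. The region at its lower-coordinate end spanned 5403330 to 5404404, with a mean mock summit 548 bp outside the gene. Mock enrichment there was 20.1-fold and 17.7-fold, and dsCP190 enrichment 26.6-fold and 11.0-fold, so that here too the mock values lay between those of the dsCP190 libraries. A further region, from 5421381 to 5422243, overlapped the far edge of the window, with its summit 5097.5 bp beyond the gene and 97.5 bp outside the window. It was enriched 11.7-fold and 22.3-fold in mock cells, against 14.6-fold and 11.8-fold after dsCP190, and the groups overlapped. Apart from this region and the one at the end of mid, no reproducible CLAMP region lay in the 45.0 kb between the pair. No reproducible CP190 region lay there.

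The gene bi (Dmel_CG3578, X from 4412856 to 4485647) is 72792 bp long and held 6 reproducible CLAMP regions, 5 of them inside the gene, the only T-box gene with CLAMP summits in its body (8% of protein-coding genes). Only 102 of the 13911 protein-coding genes (0.733%) had 6 or more, but the window of bi is 82.8 kb wide and only 163 windows were as wide or wider. With lists of equal length, of the 901 strongest CLAMP peaks each, 3 of the 6 were still called in both mock libraries. Per 10 kb, bi had 0.725 CLAMP regions, and 25.2% of protein-coding genes had as many or more. Every CLAMP summit in the window also lay on the body of a long noncoding RNA gene, lncRNA:CR32773, or within 500 bp of it. These regions thus cannot be assigned to bi alone.

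The strongest bi region spanned 4426445 to 4427444, about 14.1 kb inside the gene from its lower-coordinate end. Fold enrichment there measured 17.6 and 23.6 in mock cells, against 27.4 and 28.0 after dsCP190, so that both dsCP190 values exceeded both mock values. In dsCP190 replicate 2 it had the highest −log10 q of the list (226.72) and ranked 2 among 901 by fold. The recovered fragments were 510 and 472 in mock and 332 and 212 in dsCP190 cells. The groups thus did not overlap in fold or in fragments, with opposite directions, since the local background was 28.0 and 19.1 fragments in mock and 11.2 and 6.60 in dsCP190 libraries. How often all regions differ in this way is given below, for ranks only. The region beside it, from 4424775 to 4425692, had fold enrichments of 17.9 and 17.6 in mock cells, slightly above the 15.7 and 16.4 of the dsCP190 libraries.

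Another bi region spanned 4411046 to 4412030, with its summit 1263 bp outside the lower-coordinate end. Enrichment was 9.46-fold and 9.54-fold in the mock libraries and stood higher, at 19.9-fold and 11.1-fold, in the dsCP190 libraries. It had 474 and 450 recovered fragments in mock and 294 and 193 in dsCP190 cells. The local background there was 49.2 and 46.3 fragments in mock and 13.8 and 16.4 in dsCP190 libraries, the highest mock background of any T-box region. The summits of the 4 libraries lay within 4 bp of each other.

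The other 3 reproducible bi regions were weaker and lay inside the gene, about 11.1, 32.2 and 49.3 kb from its lower-coordinate end. Their fold enrichment ran from 2.65 to 6.49 over the mock libraries and from 4.28 to 4.98 where dsCP190 libraries called them. The region from 4423750 to 4424303 was called in all 4 libraries, and the region from 4444767 to 4445250 in dsCP190 replicate 2 only. The region from 4461940 to 4462329 was called in neither dsCP190 library, and it was the only T-box region of CLAMP so classed. It had 31 and 33 recovered fragments in mock cells over backgrounds of 9.48 and 7.87. These 3 regions fall outside the rule for named regions and were singled out after their values were seen. A peak at the lower-coordinate end of bi, with a fold of 1.81, was called in mock replicate 1 alone.

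The Dorsocross genes each had CLAMP beside 1 end of the gene. At Doc2 (Dmel_CG5187, 3L from 9012686 to 9019246) the region from 9019117 to 9019722 lay at the higher-coordinate end, with its summit 194 bp outside the gene. It was enriched 8.40-fold and 10.7-fold in mock cells, against 7.14-fold and 3.90-fold after dsCP190, so that both dsCP190 values were the lower ones. The last of these rests on 18 recovered fragments (exact Poisson 95% interval 10.7 to 28.4) over a background of 3.87.

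At Doc3 (Dmel_CG5093, 3L from 9005196 to 9007249) the region from 9004624 to 9005335 lay at the lower-coordinate end. The mock libraries gave 7.13-fold and 8.01-fold enrichment there and dsCP190 replicate 1 gave 5.79-fold, and dsCP190 replicate 2 did not call it. At Doc1 (Dmel_CG5133, 3L from 9041375 to 9045042) the region from 9040925 to 9041507 also lay at the lower-coordinate end. Its summit was on the body of lncRNA:CR46451 or within 500 bp of it. Enrichment was 3.55-fold and 6.81-fold in mock cells and 8.24-fold in dsCP190 replicate 1, and this region too was not called in dsCP190 replicate 2. With lists of equal length neither the Doc3 nor the Doc1 region was called in both mock libraries. The list of dsCP190 replicate 2 was the shortest of all, with 901 peaks, and a missing call gives no value for the enrichment.

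CLAMP summits lay close to an end of some T-box genes. For mid, Doc1, Doc2 and Doc3 a reproducible region had its mean mock summit within 500 bp of an annotated end, which is 4 of 8 genes against 11.9% of protein-coding genes. In all 4 the summit was outside the gene, by 161.5 to 222.5 bp. At H15 and bi the nearest mean mock summits were 548 and 1263 bp from an end. Reproducible CP190 summits lay within 500 bp of an end of 0 of the 8 genes, against 48.1% of protein-coding genes. Among the 20 related developmental genes described below, 13 (65%) had CLAMP and 3 (15%) had CP190 this close to an end. The gene table gives no strand, so starts and 3' ends were not told apart.

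The remaining genes, byn and org-1, had no CLAMP in any library. Nothing was called in the window of byn (Dmel_CG7260, 3L from 11927693 to 11935919), where the nearest reproducible CP190 region lay 8.68 kb and the nearest CLAMP region 66.7 kb from the gene. Around org-1 (Dmel_CG11202, X from 8447691 to 8455069) the nearest CLAMP region was 9.49 kb away.

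CP190 near the T-box genes lay at neighbouring genes. The stronger region, on 3L from 9046447 to 9048164, had its summit 2286 bp beyond the higher-coordinate end of Doc1. That summit lay on the body of Argk2, a gene named for arginine kinase, or within 500 bp of it. CP190 was enriched 27.5-fold there in each mock library, against 3.15-fold and 4.82-fold in dsCP190 replicates 1 and 2. The recovered fragments were 176 (exact Poisson 95% interval 151 to 204) and 236 (207 to 268) in mock, and 27 (17.8 to 39.3) and 25 (16.2 to 36.9) in dsCP190 cells. The mock values were far above those of both dsCP190 libraries, over local backgrounds of 5.45 and 7.61 in mock and 7.88 and 4.39 in dsCP190. The next CP190 region on that side began 5.23 kb from Doc1, just outside the window.

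The region near org-1, on X from 8442002 to 8443332, only reached into the window. Its summit lay 5323.5 bp from org-1, and on the body of CG12123 or within 500 bp of it. CP190 was enriched there 17.7-fold and 14.1-fold in mock cells and 4.50-fold in dsCP190 replicate 2, and dsCP190 replicate 1 did not call it. The next CP190 region, on the other side of org-1, lay 5.82 kb from the gene.

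H15 had a CP190 peak in dsCP190 replicate 1 and in no other library, from 5403580 to 5403876. Its fold enrichment was 2.84, from 22 recovered fragments over a background of 7.09, and it ranked 1607 among 2047 peaks. Its summit, at 5403758, was 8 bp from the CLAMP summit of dsCP190 replicate 1 at 5403750. Called in 1 library, it does not count as gained, and no T-box window held a gained region of either protein (0.0386% of all CLAMP and 0.287% of all CP190 regions were gained).

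**Figure D2:**
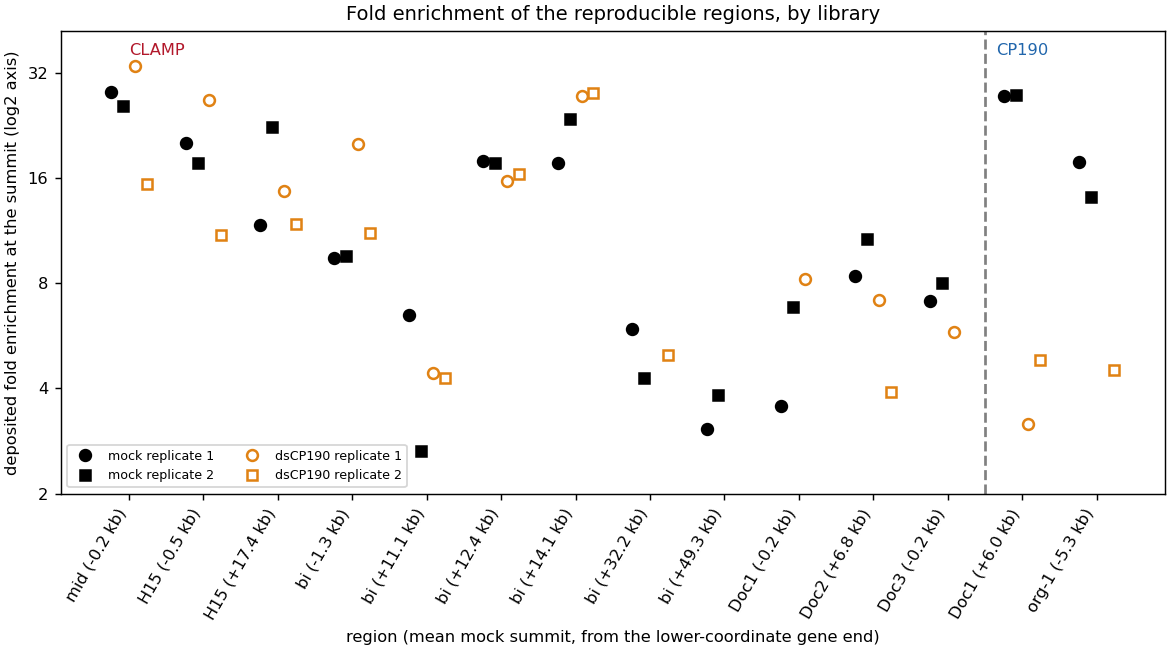
Deposited fold enrichment at the summit, on a log2 axis, of the 12 reproducible CLAMP regions (left of the dashed line) and the 2 CP190 regions, labelled by gene and by summit position in kb from the lower-coordinate gene end. Filled black symbols are mock and open orange symbols dsCP190 libraries, and a missing symbol is a library without a call. Mock and dsCP190 symbols intermix at mid and H15, whereas the CP190 region beside Doc1 drops from 27.5 in both mock libraries to 3.15 and 4.82.

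Whether binding at these genes differed between mock and dsCP190 cells was asked from the peak numbers. The 8 windows held 13 and 12 CLAMP peaks in the mock lists and 10 and 9 in the dsCP190 lists. The means were 12.5 ± 0.707 (SD, n = 2) and 9.5 ± 0.707 (SD, n = 2), a ratio of 0.76, with a two-sided exact permutation p = 0.333. This is the smallest p that 2 libraries against 2 allow. Over whole lists the ratio was 0.375, and T-box peaks made up 0.291% and 0.266% of the mock lists and 0.405% and 0.999% of the dsCP190 lists. When every CLAMP list was reduced to its 901 strongest peaks by fold, the direction turned, with 7 T-box peaks in each mock list and 8 and 9 in the dsCP190 lists. CP190 peaks in the windows numbered 2 in each of the 4 lists (2 ± 0 in both groups, SD, n = 2, exact permutation p = 1), whereas the ratio over whole lists was 0.332. The equal counts were not of the same peaks. In dsCP190 replicate 1 the peak near org-1 was missing and the weak H15 peak, absent from both mock lists, made up the number. With 10 kb on either side CP190 peaks numbered 8 and 9 in mock and 5 and 4 in dsCP190, and among peaks whose −log10 q reached 10 there were 2 and 2 in mock and 0 and 1 in dsCP190.

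Most CLAMP regions at T-box genes were still called after dsCP190. Of the 12, 8 were called in both dsCP190 libraries (66.7%), against 21.9% of all reproducible CLAMP regions. These 8 were the regions at mid and Doc2, both at H15 and 4 at bi, so that 4 of the 8 genes had such a region (10.4% of protein-coding genes). A further 3, at Doc1, Doc3 and bi, were called in 1 dsCP190 library (25%, against 38.1%), and 1 at bi was called in neither (8.33%, against 40%). In dsCP190 replicate 1 the number called was 10 of 12 (59.9% of all regions), and in replicate 2 it was 9 of 12 (22.1% of all regions).

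The T-box regions were also stronger than most. Their median mock fold enrichment was 8.93 in replicate 1 and 10.1 in replicate 2, against 4.34 and 4.57 for all reproducible regions. Of the 12, 7 fell in the strongest quintile of mock fold enrichment, where 80.4% of all regions were called in both dsCP190 libraries. The others were 1 in the next quintile (25.4%), 2 in the middle quintile (2.6%) and 2 in the quintile below it (0.684%), with 0 in the weakest (0.41%). All 7 in the strongest quintile were called in both dsCP190 libraries, which is near the share of that quintile, and the other was the weak bi region from 4423750 to 4424303. With lists of equal length, 7 of 7 T-box regions were called in both dsCP190 libraries, against 74.6% of all regions called in both mock lists.

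Of the 2 CP190 regions, that beside Doc1 was called in both dsCP190 libraries (22.6% of all reproducible CP190 regions were) and that near org-1 in 1 of them (19%). Neither was lost, against 58.4% of all CP190 regions, but with 2 regions the shares cannot be compared. With every CP190 list reduced to its 2047 strongest peaks, 1 of the 2 was called in all 4 lists, against 66.6% of all regions called in both mock lists. Only Doc1 thus had a CP190 region called in all 4 libraries in its window, as 31.4% of protein-coding genes did.

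**Figure D3:**
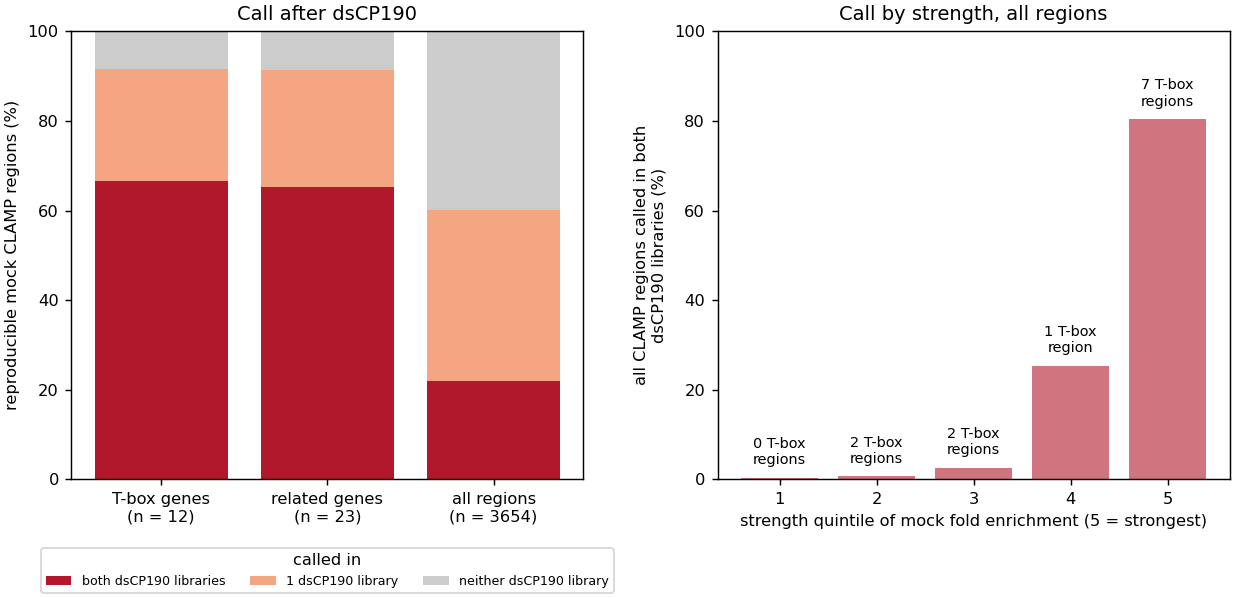
Left, the percentage of reproducible mock CLAMP regions called in both, 1 or neither dsCP190 library, for the 12 T-box regions, the 23 regions at related developmental genes and all 3654 regions. Right, the percentage of all CLAMP regions called in both dsCP190 libraries by quintile of mock fold enrichment, with the number of T-box regions in each quintile above its bar. T-box regions were called more often than all regions (66.7% against 21.9%), and 7 of the 12 sit in the strongest quintile, where 80.4% of all regions were called.

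Because the lists differ in length and local background, the order of T-box regions was also read among the same 801 CLAMP regions, those called in all 4 libraries. By fold enrichment mid stood at percentiles 99.6 and 98.0 of this set in mock and 99.3 and 95.9 in dsCP190 libraries, so its place among strong CLAMP regions overlapped between the groups. The bi region from 4411046 to 4412030 stood at 31.5 and 23.8 in mock and 87.5 and 89.0 in dsCP190. By recovered fragments the same region stood at 95.4 and 95.5 in mock and 98.4 and 99.1 in dsCP190. The strongest bi region stood at 87.1 and 95.9 by fold in mock and 97.4 and 99.9 in dsCP190. Doc2 stood low, at 24.2 and 32.5 in mock and 17.9 and 25.2 in dsCP190, and the groups overlapped.

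In 2 of the 8 T-box regions the mock and dsCP190 percentiles by fold did not overlap, against 48.1% of the 801 regions. Both lay at bi and ranked higher in both dsCP190 libraries, as 23.3% of the 801 did, while 24.7% ranked lower in both. By fragments 7 of the 8 T-box regions did not overlap, against 59.6% of the 801. Of the 7, Doc2 ranked lower in both dsCP190 libraries (1.94 and 2.75 in mock, 1.81 and 0.936 in dsCP190). The others ranked higher in both, as at mid (77.8 and 80.8 in mock, 85.1 and 91.8 in dsCP190). The shares of the 801 that ranked higher or lower by fragments were not counted. The CP190 region beside Doc1 stood at percentiles 72.6 and 84.7 in mock and 23.2 and 22.4 in dsCP190 among the 1661 CP190 regions called in all 4 libraries. The groups did not overlap there, as in 58.9% of those regions, and 28% of them were lower in both dsCP190 libraries. By fragments its percentiles were 17.1 and 22.2 in mock and 5.72 and 2.05 in dsCP190, also without overlap, as in 66.8% of the regions.

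**Figure D4:**
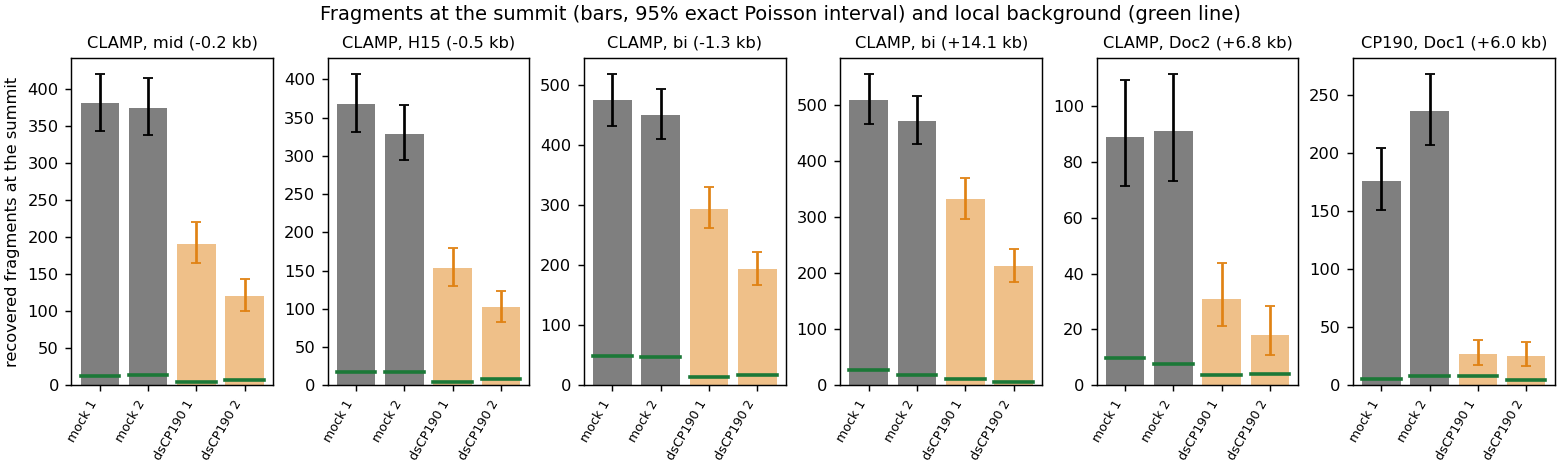
Recovered fragments at the summit (bars) with exact Poisson 95% intervals and the local background (green line), in each library, for 5 CLAMP regions and the CP190 region beside Doc1; each vertical axis starts at 0 and has its own scale. Fragments of these CLAMP regions were fewer in both dsCP190 libraries (at mid 380 and 374 against 191 and 120), where the local background was also lower. The CP190 region fell to 27 and 25 fragments, where its background was 7.88 and 4.39.

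A list of 20 genes that act in the heart, mesoderm, hindgut and appendages, as T-box factors do, was set beside them. It was written with earlier results of these data known, and its differences from the T-box genes were not tested. A reproducible CLAMP region was present in the windows of 15 of the 20 (36.1% of protein-coding genes) and a CP190 region in 9 (79.4%). Of the 15 with CLAMP, 9 had no CP190 (6.7% of all protein-coding genes with CLAMP). Of the 23 CLAMP regions, 15 (65.2%) were called in both dsCP190 libraries, 6 in 1 and 2 in neither, against 21.9%, 38.1% and 40% of all. Dr, a homeobox gene of neural and muscle patterning, had CLAMP enrichments of 26.8-fold and 37.3-fold in mock cells, against 20.5-fold and 21.4-fold after dsCP190. At tin, the homeobox gene of heart formation, the mock values were 20.4 and 23.2, against 15.3 and 9.42 after dsCP190. At wg, the Wnt ligand gene, the mock values were 20.9 and 22.2, against 29.9 and 9.22 after dsCP190, with the dsCP190 values on both sides of the mock values as at mid. The highest CLAMP regions at salm, bin and lbl were likewise called in all 4 libraries. CP190 at bin, a forkhead gene of the visceral mesoderm, was enriched 41.4-fold and 37.8-fold in mock cells, against 5.88-fold and 8.61-fold after dsCP190. At lbl, named through its CP190 region, the mock values were 36.3 and 29.1. In dsCP190 replicate 1 the value was 3.33, and dsCP190 replicate 2 did not call that region. CP190 enrichment was likewise lower after dsCP190 beside Doc1. The median CP190 fold over whole lists was lower too, at 8.13 and 7.65 in mock and 3.90 and 4.78 in dsCP190 lists. Of the 16 CP190 regions at the list, 6 (37.5%) were called in both dsCP190 libraries, 3 in 1 and 7 in neither, against 22.6%, 19% and 58.4% of all.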

How the data were processed

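The authors deposited 1 peak list for each immunoprecipitation library. Per the submitters' processing notes, MACS2 2.1.1.20160309, Picard 2.18.9, deepTools 3.0.2, Bowtie2 2.3.4.1 and cutadapt 1.16 were used with build dm6, with no role stated for any of them. Which control library and which calling settings were used is not given in the sources used here. The deposited values are a score, a fold enrichment (a ratio to local background), and a −log10 p and −log10 q per peak. They are the authors' values, and were used to rank, filter and describe peaks within a list. Fold enrichments of the same region were also set side by side between lists, with no further scaling. The series' design text names CLAMP knockdown, whereas every sample label names dsCP190; the labels were followed.

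Python 3.11.15, numpy 2.4.6, pandas 2.3.3, SciPy 1.17.1 and matplotlib 3.10.9 were used. Distinct peaks on arms 2L, 2R, 3L, 3R, 4 and X were kept, and coordinates are 1-based. Lost regions were reproducible and called in neither dsCP190 library, and gained regions had a call in each dsCP190 list and none in mock. Fragments n and background λ were solved from fold = (n + 1)/(λ + 1) and the Poisson upper tail, accepting whole n within 0.001 of the deposited −log10 p. Region calls and this step were tested on simulated data. Poisson and Wilson intervals and zero limits (3 counts) cover counting error only. Strength quintiles are of the mean within-list percentile of mock fold. The labels do not say whether replicates were separate cultures, so the permutation p-values compare only these libraries. The members and lists were chosen with earlier results of these data known.

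All 8 T-box genes were named, with coordinates for up to 3 regions per gene and antibody by mock rank, and up to 6 related genes by their best mock rank. RefSeq supplied gene coordinates without strand, exons or sequence. The planned search for motifs in promoters was not run, and no sequence is shown.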

Additional observations from a re-analysis of the deposited data

How the results depend on the processing

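The alternatives changed the peak threshold, the window, the overlap, the list length or the libraries used. The difference in CLAMP peaks at T-box genes, dsCP190 minus mock, was −3 and reversed to 1.5 with lists of equal length; with 10 kb on either side it was −5.5. For CP190 the difference of 0 became −4 with 10 kb, −1.5 for peaks whose −log10 q reached 10, and 0.5 with 1 kb or with the summit in the window. Leaving out a library gave −3.5 to −2.5 for CLAMP and 0 to 0 for CP190. The count of lost CLAMP regions, 1, became 2 with 10 kb on either side and 0 with lists of equal length, and ran from 1 to 3 when a library was left out: 3 without dsCP190 replicate 1, 2 without dsCP190 replicate 2 and 2 without mock replicate 2. Leaving out a library loosens the definition. Lost CP190 regions, 0, became 1 with a −log10 q of at least 10, 4 with 10 kb and 1 with overlap of at least 50%, and ran from 0 to 1 (1 without dsCP190 replicate 2). Kept CP190 regions, 1, became 0 with a −log10 q of at least 10, 0 with 1 kb, 3 with 10 kb and 0 with overlap of at least 50%, and ran from 1 to 2 (2 without dsCP190 replicate 1). Genes with CP190, 2, became 0 with 1 kb, 4 with 10 kb and 1 when the summit had to lie in the window. The genes added with 10 kb were byn and Doc3. The counts of genes with CLAMP (4 to 7), of genes with CLAMP and no CP190 (4 to 6) and of kept CLAMP regions (6 to 10) stayed within 1.5 times of 6, 5 and 8 in all alternatives run. With 10 kb on either side 2 of 14 CLAMP regions overlapped CP190 (14.3%), and in the other alternatives 0 did.

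With the replicate number as a block, the CLAMP difference was −3 (exact p = 0.5, the smallest that 2 pairs allow) and the CP190 difference 0. Replicates 1 and 2 are not shown to be paired: deviations of same-numbered libraries over regions called in all 4 correlated at 0.0134 for CLAMP and −0.10 for CP190. Crossing the numbers for CP190, chosen after seeing the data, also gave a difference of 0.

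For single genes, lists of equal length left 3 of the 6 CLAMP regions at bi and 0 at Doc1 and Doc3. At common CLAMP regions the dsCP190 libraries had 0.359 to 0.449 of the mock background, and the part of depth in the calls was not tested.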
